A study of Homo sapiens with 32 samples.

Results

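The genes described here are the ATF4 module: the transcription factor ATF4, the partners and feedback genes around it, the enzymes and transporters that supply amino acids, and the tRNA synthetases that load amino acids onto tRNA. When amino acids run short or unfolded protein builds up, kinases phosphorylate the translation factor eIF2. General protein synthesis then slows, while the ATF4 message is translated more, so the level of ATF4 RNA is not a measure of ATF4 protein. ATF4 protein pairs with C/EBP family members and raises transcription of genes for amino acid uptake, amino acid synthesis and tRNA charging. Members were chosen by name: 38 gene symbols, matched to probe sets carrying exactly that symbol, with the probe set of highest mean over all arrays standing for the gene. Of the 38, 37 were found among the 19775 genes measured. MARS1, the methionyl-tRNA synthetase, was not analysed here because each of its probe sets carries a second symbol.

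The study profiled RNA on Affymetrix arrays from the human lung cancer lines A549, from an adenocarcinoma, and H460a, the labels' name for a large cell carcinoma line. The tested agent was RO4929097, called GSI here, an inhibitor of gamma-secretase, the protease that releases the active part of Notch receptors. There were 8 groups of 4 arrays: A549 with GSI for 24 h, A549 with vehicle for 24 h, A549 with GSI for 6 h, A549 with vehicle for 6 h, and the same 4 kinds for H460a. GSI was given at 2 µM, and what the vehicle was is not given in the sources used here. Every group shared the same start: cells were seeded at 35% confluency and left overnight before dosing. The labels do not say whether replicates were separate cultures, so every p-value reflects only how much these arrays vary, and part of that variation may be technical. Each array read a whole culture, so fewer expressing cells and less RNA per cell cannot be told apart.

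A few arrays stood apart, and they touch results below. Mean intensity over all probe sets was 496, 531, 589 and 583 on the A549 GSI 6 h arrays, 468 to 496 on the 4 A549 vehicle 6 h arrays, and 570 to 613 on the other 24. On replicate 3 of H460a vehicle at 6 h the 3′ probe set of actin was 2.19 (log2) above its 5′ probe set, a measure of RNA quality, against 0.14 to 0.42 on all others. The epithelial keratin genes KRT8 and KRT18 were at the 98.1st percentile of all genes or higher in both lines. The epithelial adhesion gene CDH1 was at the 85.4th percentile in A549 and the 8.4th in H460a, and EPCAM was at or under the 19.1st in both. Of the 10 marker genes of other cell types, the leukocyte gene PTPRC and the endothelial gene CDH5 were at or under the 15.3rd percentile. CD3E, PECAM1, COL1A2, DCN, DES and MYH11 lay between the 32.8th and 49.9th, and CD14 and COL1A1 between the 64.4th and 72.7th, in both lines.

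In A549, 35 of 37 members, and in H460a, 34 of 37, lay above the median gene of the line. The markers COL1A1 and CD14 of other cell types did too, at the 64.4th to 72.7th percentile, so this position alone does not show expression. CHAC1, which encodes an enzyme that breaks down glutathione, was at the 39.5th percentile in A549 and the 34.8th in H460a. ATF3, a bZIP stress factor, was at the 43.6th and 45.5th. PSPH, the last enzyme of serine synthesis, was the exception that split the lines, at the 76.0th percentile in A549 and the 39.4th in H460a. In 34 of the 37 members the difference between the lines was larger than each of the 4 differences between GSI and vehicle. The change with culture time under vehicle was larger than each of those 4 in 23 members in H460a and in 22 in A549. The map of group means shows these levels as deposited.

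**Figure D1:**
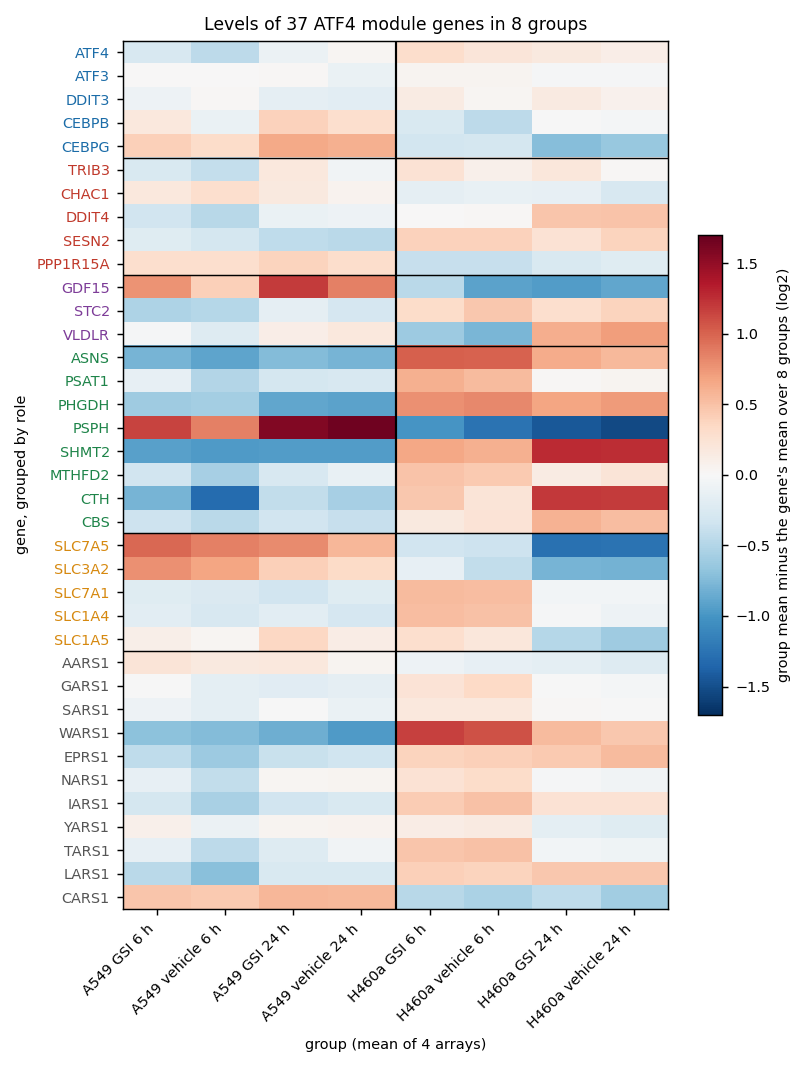
Mean log2 intensity of each of the 37 genes in each of the 8 groups (4 arrays each), minus the gene's mean over the groups; red is higher and blue lower. Gene names are coloured by role, and the vertical line divides A549 (left) from H460a. PSPH, GDF15, SLC7A5, SLC3A2 and CARS1 are red in A549, and ASNS, PHGDH, SHMT2, CTH and WARS1 are blue there.

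The lines differed in 33 of the 37 members under vehicle, 11 higher and 22 lower in A549 than in H460a (limma, adjusted p under 0.05, 8 arrays of each line over both times). This contrast was also past the threshold for 56.7% of all genes, 28.8% higher and 27.9% lower, so the count alone says little about the module. The median difference over members was -0.31 (log2, A549 minus H460a), against 0.02 over all genes. Split by role, the enzymes of amino acid and folate metabolism were lower in A549 in 7 of 8 cases and the tRNA synthetases in 8 of 11, while 3 of 5 amino acid transporters were higher. After quantile normalization the median was -0.19 over members and -0.01 over all genes. The tRNA synthetases then gave 6 lower and 3 higher, with a median of -0.09 against -0.31 as deposited. The counts for the enzymes and transporters stayed the same.

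Among those enzymes, SHMT2, the mitochondrial enzyme that turns serine into glycine and a folate-bound carbon unit, differed most in the downward direction. Its log2 intensity in A549 vehicle arrays was 10.72 at the lowest, 10.82 at the median and 10.89 at the highest, against 12.23 at the lowest, 12.74 at the median and 13.15 at the highest in H460a. The line ranges did not overlap, and A549 was lower by 3.68-fold (-1.88 ± 0.05, log2 difference ± SE, adjusted p = 6.59e-27). ASNS, asparagine synthetase and a standard readout of ATF4 activity, was 8.46 to 8.82 (median 8.63) in A549 and 9.90 to 10.67 (median 10.28) in H460a. That gap amounted to -1.62 ± 0.06 (adjusted p = 4.65e-23), again with every A549 array under every H460a array.

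Serine synthesis did not move as a block between the lines. PHGDH, its first enzyme, was 8.51 to 9.03 (median 8.74) in A549 and 10.11 to 10.35 (median 10.28) in H460a, a difference of -1.51 ± 0.05 (adjusted p = 9.56e-25). PSAT1, the second, was lower in A549 by 1.6-fold (-0.68 ± 0.06, adjusted p = 8.93e-12). PSPH ran the other way. Its log2 intensity was 8.88 to 9.98 (median 9.46) in A549 arrays and 6.48 to 7.18 (median 6.73) in H460a arrays, with a wide gap between the ranges, and the difference of 2.65 ± 0.10 (adjusted p = 4.71e-22) was 6.3-fold. Each of its 3 probe sets was higher in A549, at 2.65, 2.89 and 0.73 (log2). PSPH has a pseudogene of very similar sequence, PSPHP1, and how much of the signal comes from it was not tested.

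The transsulfuration pair, which makes cysteine from homocysteine, was lower in A549 in both steps. CTH, the second step, was 7.08 to 8.18 (median 7.64) in A549 and 8.71 to 9.88 (median 9.34) in H460a (-1.64 ± 0.08, adjusted p = 3.69e-19), and CBS, the first, differed by -0.80 ± 0.05 (adjusted p = 1.63e-16). One CBS probe set of low level, at 0.28, pointed the other way from the 2 brighter ones, at -0.80 and -0.92. MTHFD2, the mitochondrial folate dehydrogenase, was lower in A549 by 1.6-fold (-0.67 ± 0.05, adjusted p = 3.33e-13).

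Transporters split by type. SLC7A5 and SLC3A2, which together form the LAT1 exchanger for large neutral amino acids such as leucine, were both higher in A549. SLC7A5 was 12.47 to 13.08 (median 12.83) in A549 and 10.75 to 11.87 (median 11.33) in H460a, 2.86-fold higher (1.52 ± 0.07, adjusted p = 1.52e-19), and no array of either line fell in the other's range. SLC3A2 was higher by 2.15-fold (1.11 ± 0.07, adjusted p = 2.78e-15). SLC1A5, a glutamine carrier, was higher by 0.29 ± 0.05, with overlapping arrays. The carrier of cationic amino acids SLC7A1 and the alanine, serine and cysteine carrier SLC1A4 were lower in A549, at -0.46 ± 0.05 and -0.48 ± 0.05. In SLC1A4, 1 of 5 probe sets, the dimmest, did not share that direction, at 0.02.

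For the tRNA synthetases the widest gap was in WARS1, the tryptophanyl enzyme. WARS1 was 10.07 to 10.46 (median 10.22) in A549 and 11.42 to 12.34 (median 11.91) in H460a, with no overlap and a difference of -1.62 ± 0.05 (adjusted p = 6.3e-25). The glutamyl-prolyl EPRS1 (-0.95), leucyl LARS1 (-0.91), isoleucyl IARS1 (-0.78), threonyl TARS1 (-0.47), glycyl GARS1 (-0.31), asparaginyl NARS1 (-0.31) and seryl SARS1 (-0.23) enzymes were also lower in A549. CARS1, the cysteinyl enzyme, was 11.07 to 11.33 (median 11.26) in A549 and 10.06 to 10.36 (median 10.15) in H460a, and so 2.09-fold higher in A549 (1.06 ± 0.05, adjusted p = 6.36e-20). AARS1, the alanyl enzyme, was higher by 0.29 ± 0.04, and YARS1, the tyrosyl enzyme, did not pass the test (0.01, 95% interval -0.09 to 0.11). After quantile normalization GARS1 (-0.06, adjusted p = 0.215) and SARS1 (-0.09, adjusted p = 0.0713) no longer passed. As deposited, a dimmer SARS1 probe set differed by -1.52, and the dimmer CARS1 probe sets by 0.55, 0.65 and 0.06.

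Among the transcription factors, ATF4 was 11.98 to 12.57 (median 12.25) in A549 and 12.49 to 12.74 (median 12.62) in H460a, an overlap, with a difference of -0.36 ± 0.04 (adjusted p = 9.15e-09) that came to -0.10 after quantile normalization. Of its partners, CEBPG was higher in A549 by 1.91-fold (0.93 ± 0.05, adjusted p = 1.39e-18) and CEBPB by 0.33 ± 0.05. ATF3 (-0.06, 95% interval -0.18 to 0.06) and DDIT3 (-0.14, -0.27 to 0.00), which encodes the death-associated factor CHOP, did not pass the test. The probe sets of ATF3 disagreed: one of nearly the same mean level (6.89, against 7.21 for the one used) differed by -0.65, outside that interval, and a dimmer one by 0.14.

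Among the feedback genes, PPP1R15A, which brings a phosphatase to eIF2, was higher in A549 by 0.59 ± 0.05, and CHAC1 by 0.38 ± 0.06. TRIB3, a pseudokinase that restrains ATF4 and CHOP, was lower (-0.29 ± 0.05). DDIT4 (-0.52 ± 0.05) and SESN2 (-0.77 ± 0.06), which restrain the growth kinase mTORC1, were lower too. Of the secreted proteins, the stress cytokine GDF15 was 10.86 to 11.42 (median 11.12) in A549 and 9.14 to 9.76 (median 9.66) in H460a, 2.89-fold higher without overlap (1.53 ± 0.07, adjusted p = 3.89e-20), while stanniocalcin STC2 was lower (-0.81 ± 0.07; -0.16 by its other probe set). The other GDF15 probe sets, of mean level 5.65 and 5.60 against 10.49 for the one used, differed by only 0.005 and 0.087.

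**Figure D2:**
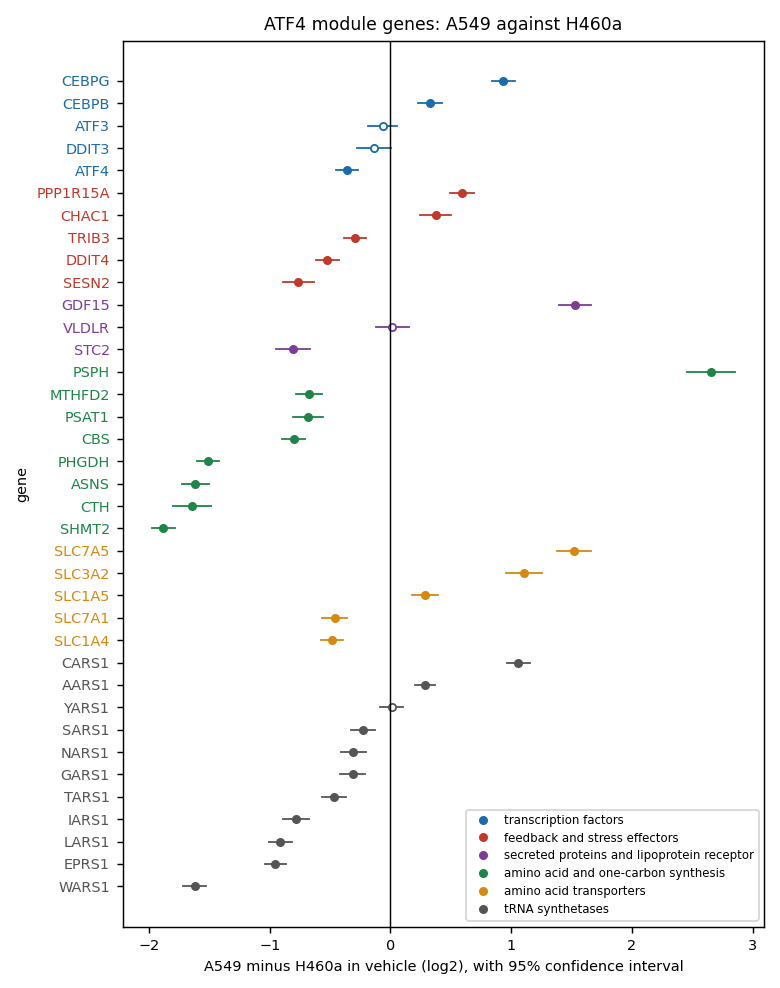
Difference between A549 and H460a vehicle arrays (log2, x axis) for each of the 37 genes, with 95% confidence intervals; filled points passed the test and open points did not. Colours mark roles. PSPH stands out at 2.65 on the A549 side, and SHMT2 at -1.88 on the other.

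Some of these line differences depended on the time of culture. With the 24 h arrays alone, 29 members passed, 12 higher and 17 lower in A549, and 26 of the 33 were past the threshold in the same direction. TARS1 (0.01, adjusted p = 0.908), NARS1 (0.11, adjusted p = 0.23) and ATF4 (-0.07, adjusted p = 0.389) were among those that no longer passed. VLDLR, a receptor for lipoproteins that ATF4 can induce, differed by 0.02 over both times and by -0.53 (adjusted p = 1.15e-05) at 24 h.

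In H460a the module changed with culture time. Under vehicle, 23 of 37 members differed at 24 h against 6 h, 7 higher and 16 lower, where 30.4% of all genes were past the threshold, 15.1% higher and 15.3% lower. The median member changed by -0.10 (log2) and the median gene by 0.01. All 5 amino acid transporters fell, as did 7 of 11 tRNA synthetases with none higher, and the enzymes of amino acid and folate metabolism divided into 3 that rose and 3 that fell. GSI arrays of H460a, which are separate arrays, gave 6 higher and 17 lower (of all genes 32.9% were called, 14.7% higher and 18.2% lower). Between these series 6 members were higher and 15 lower in both, and none was called in opposite directions.

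The largest falls were in carriers. SLC7A5 was 10.82, 10.75, 11.07 and 10.75 on the vehicle arrays at 24 h and 11.87, 11.72, 11.59 and 11.83 at 6 h. With GSI it was 11.04, 11.01, 10.55 and 10.74 at 24 h and 11.77, 11.65, 11.79 and 11.92 at 6 h. Each 24 h array lay under each 6 h array in both series, and the changes were -0.90 ± 0.10 (adjusted p = 5.14e-09) and -0.95 ± 0.10 (adjusted p = 1.93e-09). SLC1A5 was 10.44, 10.59, 10.59 and 10.63 at 24 h and 11.44, 11.38, 11.19 and 11.45 at 6 h under vehicle. This was a fall without overlap to a level 1.75-fold lower (-0.80 ± 0.07, adjusted p = 1.53e-10), with -0.76 ± 0.07 under GSI. SLC1A4 and SLC7A1 fell by 1.5-fold and 1.48-fold under vehicle. SLC3A2, the partner of SLC7A5, fell by 1.31-fold under vehicle with overlapping arrays and by 1.57-fold under GSI without overlap. The overlap under vehicle came from 6 h replicate 3 (10.47), the array with the high actin ratio. The other 6 h values, 11.14, 11.07 and 11.00, lay above all those at 24 h (10.33 to 10.74).

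Of the synthetases, WARS1 and TARS1 fell most. WARS1 was 11.58, 11.42, 11.74 and 11.48 at 24 h and 12.17, 12.09, 12.34 and 12.10 at 6 h under vehicle, and TARS1 was 11.66, 11.57, 11.71 and 11.64 at 24 h and 12.16, 12.19, 12.38 and 12.13 at 6 h. In neither gene did the times overlap. The changes were -0.62 ± 0.07 (adjusted p = 6.39e-09) for WARS1 and -0.57 ± 0.07 (adjusted p = 3.7e-08) for TARS1, and -0.63 ± 0.07 and -0.52 ± 0.07 under GSI. A dim probe set of TARS1 did not share that direction under vehicle, at 0.04. GARS1 (-0.38), NARS1 (-0.38), YARS1 (-0.35) and IARS1 (-0.25) fell in both series, though IARS1 under GSI (-0.19) did not pass after quantile normalization (adjusted p = 0.0826). SARS1 (-0.19) passed under vehicle and not under GSI (-0.16), a contrast that was not tested. Without replicate 3 at 6 h, the array with the high actin ratio, neither SARS1 (-0.12, adjusted p = 0.185) nor IARS1 (-0.16, adjusted p = 0.075) passed. AARS1 (-0.09), CARS1 (-0.04), EPRS1 (0.12) and LARS1 (0.08) did not pass.

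The enzymes went both ways. ASNS was 10.07, 9.90, 10.16 and 10.04 at 24 h and 10.46, 10.45, 10.67 and 10.41 at 6 h under vehicle, a separation of -0.46 ± 0.08 (adjusted p = 1.79e-05), and PSAT1 and MTHFD2 also fell, with log2 differences of -0.48 ± 0.09 and -0.22 ± 0.08. CTH rose instead: it was 9.87, 9.74, 9.69 and 9.88 at 24 h and 8.71, 8.87, 9.00 and 8.76 at 6 h, with every 24 h array the higher (0.96 ± 0.11, adjusted p = 1.45e-08). SHMT2 rose by 1.57-fold and CBS by 1.22-fold, and all 3 rose under GSI as well. PSPH, low in this line, passed only under GSI (-0.44 ± 0.14, adjusted p = 0.0142; vehicle -0.28 ± 0.14), and the difference between these changes was not tested. PHGDH did not pass in either series (-0.11 under GSI and -0.09 under vehicle).

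Of the members that rose in H460a, VLDLR rose most. It was 9.87, 9.997, 9.92 and 9.76 at 24 h and 8.44, 8.27, 8.69 and 8.17 at 6 h under vehicle, and 9.95, 9.91, 9.60 and 9.69 against 8.49, 8.51, 8.56 and 8.68 under GSI. All 24 h arrays were above all 6 h arrays, by 2.82-fold under vehicle (adjusted p = 3.24e-14) and 2.34-fold under GSI (adjusted p = 2.9e-12). GDF15 was lower at 24 h under GSI (-0.49 ± 0.09, adjusted p = 7.91e-05) and not under vehicle (0.03 ± 0.09), a contrast between series that was not tested. With the mean of its probe sets the change of GDF15 under GSI was -0.12 (adjusted p = 0.127). STC2 did not pass in either.

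In H460a under vehicle 2 of 5 transcription factors and 2 of 5 feedback genes passed, beside 30.4% of all genes, and ATF4 was not among them. ATF4 was 12.56, 12.49, 12.64 and 12.60 at 24 h and 12.74, 12.69, 12.56 and 12.70 at 6 h under vehicle, overlapping values with a difference of -0.10 ± 0.06 (adjusted p = 0.275). The only 6 h value within the 24 h range was that of replicate 3, the array with the high actin ratio. With GSI, ATF4 was 12.63, 12.64, 12.64 and 12.64 at 24 h and 12.77, 12.77, 12.72 and 12.79 at 6 h. Those times did not overlap, though ATF4 did not pass there either. DDIT3 (0.05), ATF3 (-0.06), TRIB3 (-0.07), CHAC1 (-0.14) and SESN2 (-0.02) also did not pass under vehicle. The second ATF3 probe set, however, changed by -0.50. CEBPG fell by 1.28-fold and CEBPB rose by 1.32-fold, each without overlap, and DDIT4 rose by 1.38-fold. PPP1R15A passed narrowly (0.18 ± 0.07, adjusted p = 0.0458) and did not without replicate 3 at 6 h (adjusted p = 0.0904).

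**Figure D3:**
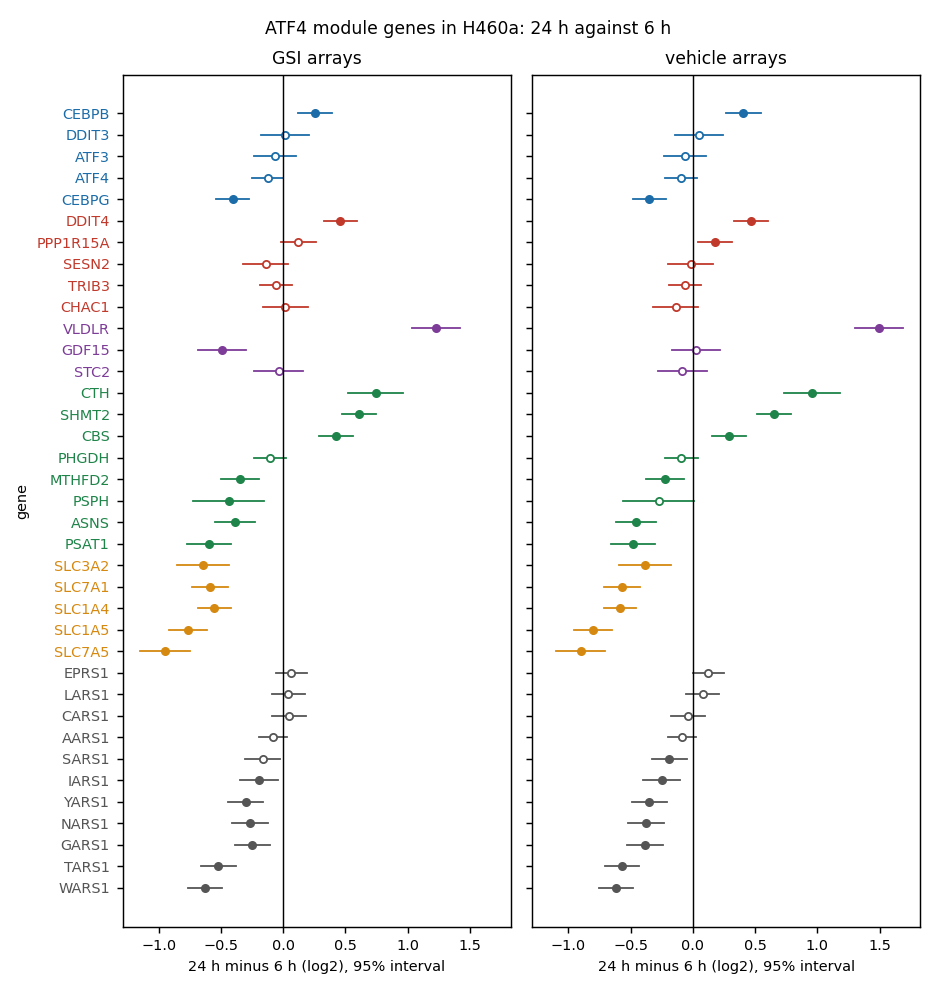
Change at 24 h against 6 h in H460a (log2, x axis) for each gene, in GSI arrays (left) and vehicle arrays (right), with 95% confidence intervals; filled points passed the test. The transporters lie left of 0 in both panels, and VLDLR and CTH lie farthest right.

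ATF4 with a C/EBP partner binds a composite element whose core is TGATGNAA, so the promoters of members were read for that string. Promoters were the RefSeq windows of GRCh38.p14 running 250 bases before to 50 after each start site, read on either strand with no other motif searched. Of the 33 measured members with a promoter there, 14 (42.4%) held the string, against 556 of 15384 measured genes (3.61%). Over all genes with a promoter there, measured or not, the share was 1217 of 27305 (4.46%). The 14 are shown because 10 of them fell in H460a under vehicle at 24 h against 6 h. Each is given on the strand of its gene, 5′ to 3′, with the 8 matching bases in capitals, first the 10 that fell and then the 4 that did not pass.
SLC1A5, chr19:46784894-46784921, minus strand: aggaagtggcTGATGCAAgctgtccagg
SLC1A4, chr2:64989382-64989409, plus strand: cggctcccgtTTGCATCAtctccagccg
TARS1, chr5:33440957-33440984, plus strand: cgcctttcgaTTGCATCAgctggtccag
SLC7A1, chr13:29595664-29595691, minus strand: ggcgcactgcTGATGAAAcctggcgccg
ASNS, chr7:97872459-97872486, minus strand: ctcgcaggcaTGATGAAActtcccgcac
SLC3A2, chr11:62881726-62881748, plus strand: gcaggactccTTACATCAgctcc
GARS1, chr7:30594835-30594862, plus strand: tacgcggcgaTTTCATCAtgctccgagc
NARS1, chr18:57621805-57621832, minus strand: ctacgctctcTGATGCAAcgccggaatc
CEBPG, chr19:33374061-33374088, plus strand: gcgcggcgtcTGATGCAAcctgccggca
IARS1, chr9:92293693-92293720, minus strand: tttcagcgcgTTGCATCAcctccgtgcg
CHAC1, chr15:40953252-40953279, plus strand: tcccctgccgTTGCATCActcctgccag
AARS1, chr16:70289676-70289703, minus strand: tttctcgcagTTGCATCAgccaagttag
ATF3, chr1:212565206-212565233, plus strand: aaggtcaggaTGATGGAAggctgtcata
CARS1, chr11:3057408-3057435, minus strand: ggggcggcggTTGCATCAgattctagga
The string lay on the gene's own strand in 6 and on the opposite strand, where it reads as its reverse complement, in 8. In 11 of the 14 its first base lay under 100 bases from the start site. In TARS1 (3), SLC7A1 (8), NARS1 (15) and SLC3A2 (38) it began inside the transcribed part, counted in bases from 1 at the start site. In the remaining 3, ATF3 (-191), CHAC1 (-209) and AARS1 (-187, in bases from the start site), it lay farther upstream. Distances were not counted over all genes, so no share stands beside these counts, and whether distance goes with the change over time was not tested.

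Members with the string fell in 10 of 14 cases (71.4%) in H460a vehicle and had a median change of -0.38, while members without it fell in 5 of 19 (26.3%) with a median of -0.02. Over all measured genes the string went with no such excess: 64 of 556 genes with it fell (11.5%) and 2475 of 14828 without it (16.7%). WARS1 and SLC7A5, among the members that fell most, hold no match in this window, and 6 of the 9 measured synthetases with a promoter in the table hold one. These are counts of a string, given without a test, and a match describes the sequence only. Members were chosen by name as genes of the ATF4 module, so their share with the string is not independent of that choice.

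In A549 the change with culture time depended on scaling. As deposited, 16 members rose and 5 fell under vehicle, where 44.2% of all genes were called, 29.2% higher and 15% lower; after quantile normalization 4 rose and 16 fell. The 6 h vehicle arrays were those of low mean intensity, and 15 of 37 members had another sign under the other scaling. Past the threshold in the same direction under both were CTH, PSPH, VLDLR and LARS1, which rose, and PHGDH, SLC7A5, SLC3A2 and WARS1, which fell. Under GSI 10 rose and 2 fell as deposited (18.7% of all genes, 14.5% higher and 4.22% lower), against 3 and 12 after quantile normalization, with CTH, TRIB3 and STC2 rising and PHGDH and SLC3A2 falling under both. Without replicate 2 of the 6 h GSI arrays 6 members passed there, and without replicate 3 of the 24 h GSI arrays 7.

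CTH was 7.81, 8.17, 8.18 and 8.03 at 24 h and 7.48, 7.16, 7.08 and 7.48 at 6 h in A549 vehicle, a rise without overlap of 0.75 ± 0.11 (adjusted p = 1.63e-06; 0.73 after quantile normalization). PSPH was 9.63, 9.98, 9.90 and 9.84 at 24 h and 9.30, 8.88, 8.98 and 9.00 at 6 h (0.80 ± 0.14, adjusted p = 2.27e-05; 0.61 after quantile normalization). PHGDH was 8.58, 8.51, 8.55 and 8.67 at 24 h and 8.81, 9.03, 8.88 and 8.95 at 6 h (-0.34 ± 0.06, adjusted p = 6.21e-05; -0.56 after quantile normalization). The first and last enzymes of serine synthesis thus moved in opposite directions in A549 with no overlap of arrays in either. ATF4 was 12.43, 12.57, 12.53 and 12.48 at 24 h and 11.98, 12.05, 11.99 and 12.07 at 6 h (0.49 ± 0.06, adjusted p = 2.43e-07), and after quantile normalization it was 0.08 (adjusted p = 0.182), which did not pass. TRIB3 rose under GSI under both scalings (0.43 ± 0.06, adjusted p = 5.47e-06; 0.30 after quantile normalization).

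The change with time differed between the lines in 23 members, 20 of them more positive in A549 than in H460a and 3 more negative (35.5% of all genes were called, 24.4% and 11.1%). After quantile normalization the split was 12 and 10. Under both scalings 12 were more positive in A549: ATF4, ASNS, PSAT1, PSPH, MTHFD2, SLC7A1, SLC1A4, SLC1A5, CEBPG, NARS1, YARS1 and TARS1. For TARS1 the difference of changes was 0.96 ± 0.10 (adjusted p = 4.82e-09), for SLC1A5 0.89 ± 0.10 (adjusted p = 5.96e-08) and for PSPH 1.08 ± 0.20 (adjusted p = 6.41e-05). VLDLR (-1.09 ± 0.13, adjusted p = 1.2e-07), SHMT2 (-0.63 ± 0.10) and PHGDH (-0.25 ± 0.09) were more negative in A549 under both.

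GSI changed few members. In H460a at 24 h none of the 37 differed between GSI and vehicle by limma (2 at unadjusted p under 0.05), where 0.00506% of all genes, a single gene, were called. The 95% intervals of the 37 differences reached no lower than -0.30 (SESN2) and no higher than 0.39 (PSPH), so changes beyond those bounds fall outside every interval. ASNS was 10.23, 10.18, 10.10 and 10.01 with GSI and 10.07, 9.90, 10.16 and 10.04 with vehicle, overlapping values (0.09 ± 0.08). TRIB3 was 10.93, 10.82, 10.70 and 10.74 with GSI and 10.59, 10.56, 10.74 and 10.64 with vehicle, again with overlap (0.17 ± 0.06, adjusted p = 0.643).

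In H460a at 6 h 1 member, GDF15, passed, against 0.0961% of all genes, 0.0708% higher and 0.0253% lower. GDF15 was 10.01, 10.05, 9.99 and 10.11 with GSI and 9.76, 9.66, 9.14 and 9.75 with vehicle, and each GSI array was above each vehicle array (0.46 ± 0.09, adjusted p = 0.0338). The lowest vehicle value is that of replicate 3, the array with the high actin ratio, and without the arrays that stand apart the difference was 0.32 (adjusted p = 0.123). The call was also lost when vehicle replicate 2 or any one of the 4 GSI arrays was left out. Neither did GDF15 pass after quantile normalization, with the comparison's own arrays or with the mean of its probe sets. The median difference was 0.03 over the 37 members and 0.00 over all genes.

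In A549 at 24 h TRIB3 alone passed, against 2.21% of all genes, 1.32% higher and 0.885% lower. TRIB3 was 10.76, 10.85, 10.76 and 10.76 with GSI and 10.40, 10.61, 10.54 and 10.64 with vehicle, so that all GSI arrays were above all vehicle arrays (0.24 ± 0.06, 1.18-fold, adjusted p = 0.0358). The call held after quantile normalization (0.23, adjusted p = 0.00509). It was lost when vehicle replicate 1 or 3 or any one of the GSI arrays was left out. Nor did TRIB3 pass when only the arrays of this comparison were fitted (adjusted p = 0.0703), with the mean of its probe sets or with a replicate block. GDF15 was 11.60, 11.65, 11.69 and 11.77 with GSI and 11.26, 11.30, 11.42 and 11.41 with vehicle, without overlap (0.33 ± 0.09, adjusted p = 0.0556), and passed after quantile normalization (0.33, adjusted p = 0.0405). ASNS (0.05 ± 0.08), DDIT3 (0.03 ± 0.10), ATF4 (-0.14 ± 0.06), PSAT1 (-0.03 ± 0.09) and CHAC1 (0.10 ± 0.09) did not pass. The tRNA synthetases had a median of -0.01, and none of 11 was called.

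**Figure D4:**
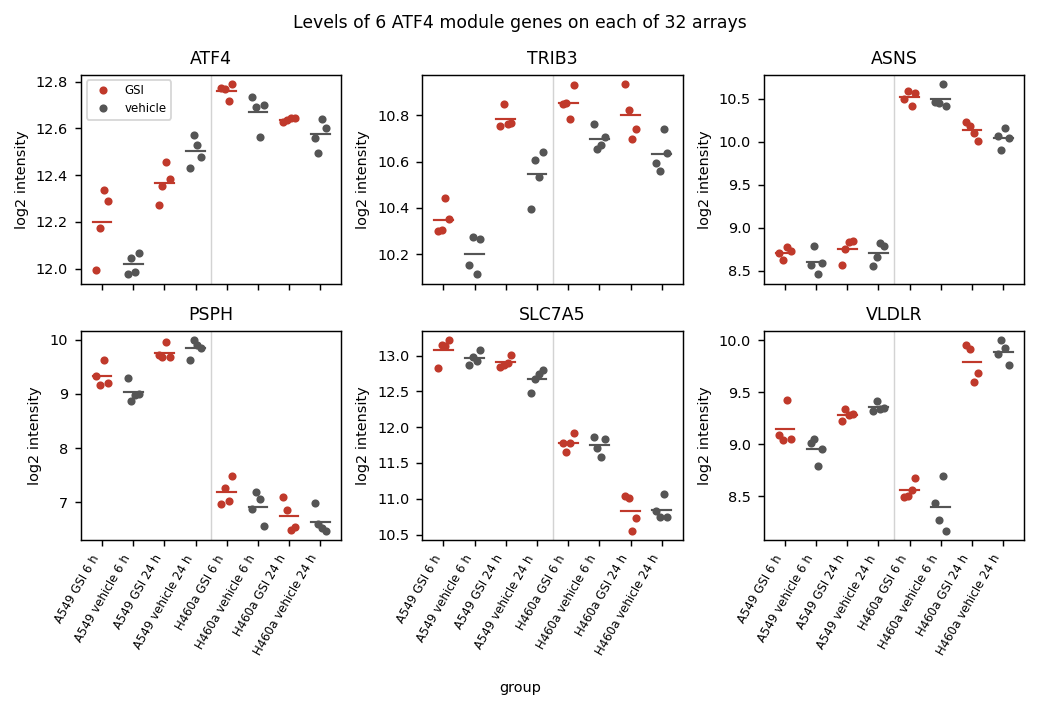
Log2 intensity of ATF4, TRIB3, ASNS, PSPH, SLC7A5 and VLDLR on each of the 32 arrays (points) with group means (bars); GSI is red and vehicle grey, and the vertical line divides A549 (left) from H460a. TRIB3 in A549 at 24 h is 10.76 to 10.85 with GSI and 10.40 to 10.64 with vehicle.

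The 2 lines did not differ in the GSI effect at 24 h in any member by limma (0 of 37, with 0.637% of all genes called, 0.364% more positive in A549 and 0.273% more negative, and 2 members at unadjusted p under 0.05). For TRIB3 the difference of effects, A549 minus H460a, was 0.07 ± 0.09 and for GDF15 0.39 ± 0.13, with a 95% interval of 0.12 to 0.66. A call in 1 line and not in the other is thus not shown to be a difference between lines.

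In A549 at 6 h, 10 members were higher with GSI and none lower, against 13.1% of all genes called, 11.6% higher and 1.51% lower. They were CTH, PSAT1, GDF15, MTHFD2, CEBPB and the synthetases TARS1, NARS1, IARS1, LARS1 and EPRS1. The mean intensity of the arrays ran with this contrast, with 2 GSI arrays at 589 and 583 and no vehicle array above 496. After quantile normalization 2 passed, CTH (0.54, adjusted p = 0.00294) and PSAT1 (0.22, adjusted p = 0.0448), and without the arrays that stand apart none did. Leaving out GSI replicate 3 left 0, GSI replicate 4 left 2 and vehicle replicate 3 left 4. How much of the 6 h difference comes with array brightness was not tested further.

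CTH was 7.80, 7.50, 8.09 and 7.87 with GSI and 7.48, 7.16, 7.08 and 7.48 with vehicle at 6 h, with no overlap (0.52 ± 0.11, adjusted p = 0.0048; without the arrays that stand apart 0.35, adjusted p = 0.476). PSAT1 was 10.99, 11.00, 11.38 and 11.26 with GSI and 10.89, 10.82, 10.68 and 10.75 with vehicle (0.37 ± 0.09, adjusted p = 0.00752; without those arrays 0.21, adjusted p = 0.551). GSI replicates 3 and 4 hold the 2 highest values of each gene. At 24 h neither passed, with 0.15 ± 0.11 for CTH and -0.03 ± 0.09 for PSAT1.

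**Figure D5:**
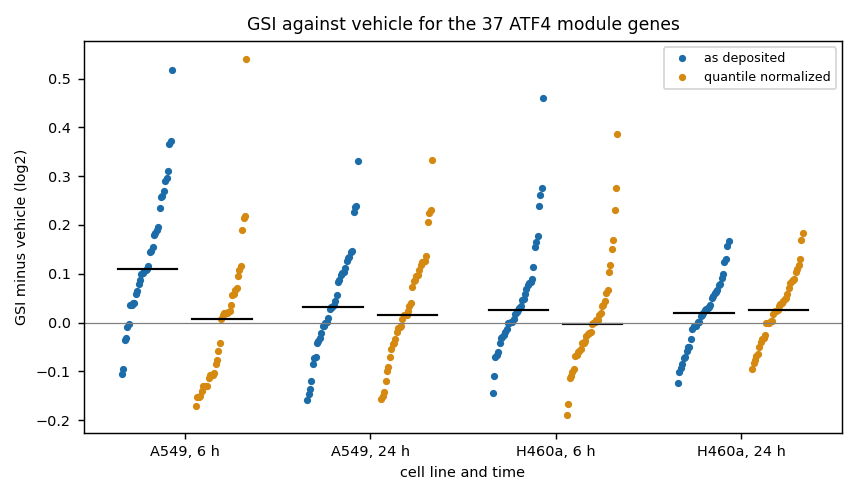
GSI minus vehicle (log2, y axis) for the 37 genes in each line and time, sorted within each column; blue is as deposited, orange after quantile normalization, and black bars are medians. The A549 6 h median is 0.11 as deposited and 0.01 after quantile normalization.

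Other genes of the pathway also changed in H460a over time, where 30.4% of all genes were called under vehicle, 15.1% higher and 15.3% lower. The list of eIF2 genes held 14: those for eIF2 subunits, its kinases and its exchange factor eIF2B, and the related genes GCN1 and IMPACT. Of these 14, 8 fell and 2 rose under vehicle. Those that fell included EIF2S1 (-0.81), the subunit that is phosphorylated, EIF2B3 (-0.69), EIF2B1 (-0.66) and EIF2B4 (-0.47). The list of other cytosolic synthetases had 7 measured genes, 1 of which, AIMP1, encodes a partner of synthetases and not a synthetase. Of these 7 genes 6 fell, AIMP1 among them, and none rose. FARSA (-0.70), HARS1 (-0.63), RARS1 (-0.56) and FARSB (-0.50) fell most. The 15 mitochondrial synthetases gave 7 lower and 2 higher, with EARS2 (-0.47), MARS2 (-0.44) and RARS2 (-0.37) lower and IARS2 (0.39) higher. The 21 other ATF4 targets, with a share near that of all genes, divided evenly, 4 lower and 4 higher: ATF5 (-0.84), a paralogue of ATF4, and PYCR1 (-0.36), of proline synthesis, fell, while the glutamine carrier SLC38A2 (0.64) and the repressor NFIL3 (0.54) rose.

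Between the lines 56.7% of all genes were called, 28.8% higher and 27.9% lower in A549. In the same lists 8 of 14 eIF2 genes were lower (2 higher), and 10 of 15 mitochondrial synthetases (3 higher). In the list of other cytosolic synthetases, which includes AIMP1, 6 of 7 were lower and none higher. After quantile normalization these became 6 lower and 5 higher for the eIF2 genes, 5 and 1 for the cytosolic and 9 and 3 for the mitochondrial synthetases. The kinase EIF2AK4, also called GCN2, which senses uncharged tRNA, was lower (-1.36 ± 0.08, adjusted p = 3.77e-17), and EIF2AK1, the haem-regulated kinase, was higher by 0.64 ± 0.04. The valyl enzyme VARS1 (-0.86), HARS1 (-0.77) and FARSB (-0.73) were lower, as were mitochondrial MARS2 (-1.21), IARS2 (-1.07) and EARS2 (-0.84), with SARS2 higher (0.60). Of the other ATF4 targets 10 were higher and 6 lower, including the folate enzyme ALDH1L2 (-1.75) and the tRNA exporter XPOT (-0.92), both lower, and the leucine carrier SLC43A1 (1.05) and JDP2 (0.96), both higher.

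With GSI in A549 at 24 h, where 2.21% of all genes were called, 1 of 21 other ATF4 targets passed, PCK2, the mitochondrial enzyme that makes phosphoenolpyruvate (0.32 ± 0.07, adjusted p = 0.0028), and 1 of 15 mitochondrial synthetases, PARS2 (0.24 ± 0.06, adjusted p = 0.0446). None of the eIF2 genes or other cytosolic synthetases passed there, and none of these 4 lists held a called gene in H460a under GSI at either time (0.0961% of all genes called at 6 h and 0.00506% at 24 h). After quantile normalization PARS2 no longer passed (0.21, adjusted p = 0.0826), and EIF2S3, the gamma subunit of eIF2, was lower with GSI in A549 at 24 h (-0.20, adjusted p = 0.0483; as deposited -0.19, adjusted p = 0.259). The stress kinase EIF2AK3, or PERK, was then higher in H460a at 6 h (0.33, adjusted p = 0.0388). As deposited EIF2AK3 was 9.76, 9.78, 9.91 and 9.93 with GSI and 9.48, 9.47, 9.53 and 9.34 with vehicle, without overlap (0.39 ± 0.09, adjusted p = 0.104). At 6 h in A549, 6 of 14 eIF2 genes and 5 of 21 other targets were higher, beside 11.6% of all genes, led by EIF2AK4 (0.34) and SLC38A2 (0.50). Of these, SLC38A2 passed after quantile normalization (0.21, adjusted p = 0.0282), and without the arrays that stand apart it was 0.32 (adjusted p = 0.0606).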

How the data were processed

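Each deposited value is an intensity of a probe set, which the authors computed by RMA per the submitters' processing notes. No version or software of RMA is given in the sources used here. The scale is linear, as the range of the values shows, and log2 was taken here with no further scaling. Of 54675 probe sets, 62 controls, 1801 with several symbols and 11721 with no gene were left out, leaving 41091 for 19775 genes. The platform annotation pairs probe sets with symbols. Means of the 8 groups were fitted over 32 arrays with limma 3.58.1 (lmFit, eBayes) in R 4.3.3, with 31.89 degrees of freedom, 7.888 of them from the prior, and Benjamini-Hochberg adjustment over all genes within each contrast at 0.05. Precision is limited by the number of arrays, with a median standard error of 0.087 for a difference of 2 groups. Members, lists, comparisons and alternatives were chosen with earlier results of these data known. Named are members past the threshold, ATF4, DDIT3, ATF3, ASNS, TRIB3, CHAC1 and PSAT1 in any case, and up to 4 genes of each other list. Some genes of the other lists are not reported here. PSPH, SHMT2, YARS1 and LARS1 had no entry in the promoter table. Alternatives were quantile normalization, each comparison's own arrays, a filter on low genes, the mean of a gene's probe sets, a replicate block and leaving out each array. Fits without 3 arrays that stand apart (A549 GSI 6 h replicates 3 and 4, H460a vehicle 6 h replicate 3), and with the 24 h arrays alone, were added after seeing the data. The steps were tested on simulated data. A note on embryos in the sample descriptions was not used here.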

Additional observations from a re-analysis of the deposited data

Results flagged for a closer look

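Of 296 sets of 4 arrays (37 members in 8 groups), 19 held an array whose gap to the others, over the set's range, was above Dixon's critical value of 0.829; chance gives about 1 in 20. In H460a vehicle at 6 h there were 6, all replicate 3, the array with the high actin ratio: DDIT4 13.73, MTHFD2 12.63, STC2 9.68, GARS1 12.87 and IARS1 13.01 were high there, and GDF15 9.14 low. In A549 vehicle at 6 h, DDIT4 13.11 and TARS1 11.32 on replicate 2 and GDF15 10.97 on replicate 4 were high. In A549 vehicle at 24 h, LARS1 10.86 on replicate 3 was high, and DDIT4 13.37 on replicate 1 and SESN2 7.78 on replicate 4 were low. In A549 GSI at 24 h, TRIB3 10.85 on replicate 2 and PSPH 9.95 on replicate 3 were high, and in A549 GSI at 6 h VLDLR 9.42 on replicate 3 was high. In H460a GSI at 24 h, MTHFD2 12.05 on replicate 3 and SLC3A2 10.24 and SARS1 10.95 on replicate 4 were low, and in H460a vehicle at 24 h SLC1A4 8.82 on replicate 2 was low. All values are log2 intensities.

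The change at 24 h against 6 h in vehicle differed between the lines in 23 members by limma's test of the difference itself, A549 minus H460a (log2, adjusted p under 0.05). It was positive for PSPH (1.08), TARS1 (0.96), SLC1A5 (0.89), NARS1 (0.83), PSAT1 (0.72), MTHFD2 (0.66), CEBPG (0.64), SLC7A1 (0.61), SLC7A5 (0.61), ATF4 (0.58), SLC1A4 (0.58), ASNS (0.56), IARS1 (0.55), YARS1 (0.51), GDF15 (0.43), TRIB3 (0.41), GARS1 (0.40), WARS1 (0.39), LARS1 (0.37) and SARS1 (0.24). It was negative for VLDLR (-1.09), SHMT2 (-0.63) and PHGDH (-0.25). The A549 6 h vehicle arrays had the lowest mean intensities, and after quantile normalization 15 of these 23 passed in the same direction.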

How the results depend on the processing

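Counts of called members between the lines were 33 (32 to 34 over the alternatives that keep all arrays and 33 to 34 with 1 array left out). With 1 array left out, counts over time were 20 to 24 in H460a vehicle (23 with all), 22 to 23 in H460a GSI (23), 19 to 21 in A549 vehicle (21), 6 to 15 in A549 GSI (12) and 21 to 23 for the difference of time changes (23), though its split of 20 positive and 3 negative became 12 and 10 after quantile normalization. For GSI in A549 at 6 h the count of 10 became 2 after quantile normalization, 0 with the comparison's own arrays and 0 without the arrays that stand apart, and 0 to 14 with 1 array left out. At 24 h the count of 1, TRIB3, became 2 after quantile normalization, 2 with own arrays (TRIB3 not among them) and 2 with low genes left out. It became 3 when the arrays standing apart were dropped, 0 with the mean of probe sets, 0 with the replicate block, and 0 to 1 with 1 array left out. In H460a at 6 h the count of 1 became 0 after quantile normalization, with own arrays, with the mean of probe sets and when the arrays standing apart were dropped, and 0 to 1 with 1 array left out; at 24 h, and for the difference of GSI effects, it was 0 throughout.

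Among results past the threshold with or without quantile normalization, it turned the sign for A549 vehicle over time in CARS1 (-0.25), CEBPB (-0.056), DDIT4 (-0.083), EPRS1 (-0.024), GARS1 (-0.40), IARS1 (-0.075), PPP1R15A (-0.18), PSAT1 (-0.068; -0.054 with the mean of probe sets), SARS1 (-0.27), SHMT2 (-0.29), SLC1A5 (-0.27), SLC7A1 (-0.23) and YARS1 (-0.13). Signs also turned for DDIT4 in A549 GSI over time (-0.005), EIF2S2 with GSI in A549 at 6 h (-0.043), and GARS1 (-0.027), SARS1 (-0.13) and SLC3A2 (-0.44) in the difference of time changes. With 24 h arrays alone they turned between lines for NARS1 (0.11), TARS1 (0.012) and VLDLR (-0.53). The cause was not tested. With uncalled members included, the sign differed after quantile normalization, of 37, in 15 for A549 vehicle and 9 for A549 GSI over time, 0 and 5 for the same in H460a, 14 and 1 for GSI in A549 at 6 h and 24 h, 8 and 4 in H460a, 0 between lines, 3 for the difference of GSI effects and 7 for that of time changes. Over the named genes, alternatives kept direction and side of the threshold in 6641 cases, lost the call in 299, gained it in 89, turned the sign of a called result in 22 and that of a result called in neither fit in 336.

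Replicate numbers did not pair the arrays: same-number correlations of deviations ran between -0.35 and 0.32 over the comparisons. With the replicate block the counts were 10 for GSI in A549 at 6 h, 0 at 24 h, 1 and 0 in H460a, 21 and 12 over time in A549, 23 and 22 over time in H460a, 33 between lines, 0 for the difference of GSI effects and 23 for that of time changes.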
